A study of Mus musculus with 8 samples.

Results

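The antioxidant enzymes described here are 10 genes of the mouse heart: the superoxide dismutases Sod1, Sod2 and Sod3, catalase (Cat), the glutathione peroxidases Gpx1, Gpx3 and Gpx4, and the peroxiredoxins Prdx3, Prdx5 and Prdx6. They were chosen by name. A total of 14 probes of the array matched them, and all 10 were among the 21412 genes and unnamed features tested. RNA came from 8 hearts of male C57BL6 mice, each hybridised to its own 1-colour array. The 4 dtg hearts carried merCremer/+ IGFloxP/IGFloxP, a Cre recombinase that 4OH-tamoxifen activates together with both copies of a floxed gene for the insulin-like growth factor receptor. The 4 control hearts carried Cre recombinase without the floxed receptor gene. Both groups were given 4OH-tamoxifen at 8 months of age, 500 µg on each of 10 days in a row, meant to remove exon 3 of the receptor gene, and hearts were taken 6 weeks later. No source used here names the promoter that drives merCremer. Whether the 8 samples are 8 different animals is not stated in the labels; the p-values rest on the variation among the samples as they are, part of which may be technical. The comparison asks what the loss of this receptor does to gene expression in the aging heart.

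These enzymes remove reactive oxygen species in series. Superoxide dismutases turn superoxide, much of it made by the mitochondrial respiratory chain, into hydrogen peroxide. Catalase, glutathione peroxidases and peroxiredoxins then reduce hydrogen peroxide and lipid peroxides, the peroxidases and peroxiredoxins with electrons that come from NADPH through glutathione or thioredoxin. Cardiac muscle is rich in mitochondria, and FoxO transcription factors, which insulin-like growth factor signalling restrains, are known to activate Sod2 and Cat.

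Values are log2 of the background-subtracted signal minus the 75th percentile of the same array, so 0 is the level of a probe at that percentile, and levels of different probes are not compared. Every probe of the 10 genes was well above background on all 8 arrays, and no spot on any array was saturated. Each group had 2 hearts on slide 1 and 2 on slide 2: dtg 1, dtg 4, control 1 and control 2 lay on slide 1, and dtg 2, dtg 3, control 3 and control 4 on slide 2. The 75th percentile lay between 680 and 946 intensity units, and between 59.1% and 71.4% of probes were well above background per array. The hearts farthest from the median heart over all features were dtg 4 and control 4, with median absolute deviations of 0.20 and 0.26, against 0.10 to 0.16 in the other 6. Igf1r, the targeted gene, measured -0.30, -0.21, 0.17 and 0.40 in dtg hearts, against 0.18, 0.21, 0.38 and 1.04 in control hearts. These groups overlapped and the difference of -0.43 (SE 0.24) did not pass the test (limma, adjusted p = 1); where the probe lies relative to exon 3 was not determined, so it does not check the deletion. All 8 listed cardiomyocyte markers were measured, and Myh6, the main myosin heavy chain of the adult mouse heart, lay between 8.83 and 8.91 in dtg hearts and between 8.86 and 8.96 in control hearts. In whole tissue, fewer cells of a type and less RNA per cell cannot be told apart.

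RefSeq promoter windows (build GRCm38.p6, from 250 bases before to 50 bases after the start of the gene) were found for 8 of the 10 genes. The windows of Gpx3, Sod2 and Cat are shown because these genes varied most between hearts, and that of Sod1 because it alone held the core of the antioxidant response element, the site bound by Nrf2. Each is written 5′ to 3′ on the strand of the gene, and capitals mark the core TGACNNNGC, the FoxO site GTAAACA and the Sp1 box GGGCGG on either strand, with overlapping matches run together.
Gpx3 promoter, chr11:54902604-54902903, strand +: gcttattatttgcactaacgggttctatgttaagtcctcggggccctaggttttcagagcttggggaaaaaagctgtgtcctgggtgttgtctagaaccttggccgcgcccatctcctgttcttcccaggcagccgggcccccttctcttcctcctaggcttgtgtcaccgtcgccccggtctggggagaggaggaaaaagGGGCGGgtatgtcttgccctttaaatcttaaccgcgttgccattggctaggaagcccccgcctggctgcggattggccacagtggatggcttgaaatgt
Sod2 promoter, chr17:13007589-13007888, strand +: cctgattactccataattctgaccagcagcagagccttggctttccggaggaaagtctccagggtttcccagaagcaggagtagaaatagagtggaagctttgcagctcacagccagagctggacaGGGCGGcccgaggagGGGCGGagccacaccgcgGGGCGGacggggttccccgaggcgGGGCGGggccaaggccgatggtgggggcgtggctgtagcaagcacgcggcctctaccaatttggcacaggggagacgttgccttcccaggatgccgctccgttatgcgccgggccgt
Cat promoter, chr2:103485104-103485403, strand -: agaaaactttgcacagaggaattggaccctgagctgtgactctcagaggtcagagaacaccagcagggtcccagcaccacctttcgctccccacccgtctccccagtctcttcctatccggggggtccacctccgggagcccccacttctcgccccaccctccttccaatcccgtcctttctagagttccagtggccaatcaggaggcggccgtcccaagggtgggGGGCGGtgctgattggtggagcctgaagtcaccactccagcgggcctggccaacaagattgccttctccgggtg
Sod1 promoter, chr16:90220512-90220811, strand +: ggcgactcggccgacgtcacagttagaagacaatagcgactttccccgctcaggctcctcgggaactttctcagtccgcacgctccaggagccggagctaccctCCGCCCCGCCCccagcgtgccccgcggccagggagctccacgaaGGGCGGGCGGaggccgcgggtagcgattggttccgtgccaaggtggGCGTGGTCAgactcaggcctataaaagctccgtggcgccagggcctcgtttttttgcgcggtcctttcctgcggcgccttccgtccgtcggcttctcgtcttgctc

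The core TGACNNNGC, read on both strands, was in the window of 1 of 8 genes (Sod1, at position -56 from the start). Over all genes it was found for 3781 of 27025, and in 12.4% of their 32851 windows. GTAAACA was found for 0 of 8 genes, against 1095 of all 27025 genes and 3.65% of all windows. GGGCGG was found for 8 of 8 genes, for Gpx4 in 3 of its 4 windows. That compares with 10324 of all 27025 genes and 35.7% of all windows. Sod2 held 4 copies, the nearest at position -67, whereas Gpx3 and Cat each held 1. The share of G and C in the windows of these genes ran from 47% to 68.3%. The median of all windows was 52.7%, and only the window of Gpx1 lay below it. A match of letters is a description of these windows and not of binding.

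No antioxidant enzyme gene passed the test between dtg and control hearts. Of the 10 genes, 0 were called higher and 0 lower (limma, adjusted p = 1 for each), as were 0% of the 21412 features in either direction. At an unadjusted p under 0.05 there were again 0 of 10, against 0.743% of all features, 0.612% higher and 0.131% lower. In 4 of the 24 other settings there was 1 of 10, where between 179 and 665 of the 21412 features were under 0.05. In all 10 genes the values of the groups overlapped; 0.519% of all features had no overlap, 0.337% with dtg higher and 0.182% with dtg lower. The mean was above that of controls in 6 genes and below it in 4, where 55.3% of all features lay above and 44.7% below, with a median log2 difference of 0.030, against 0.015 over all features. Fold changes ran from 0.741 to 1.15, and no 95% interval went below 0.528-fold or above 1.56-fold.

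**Figure D1:**
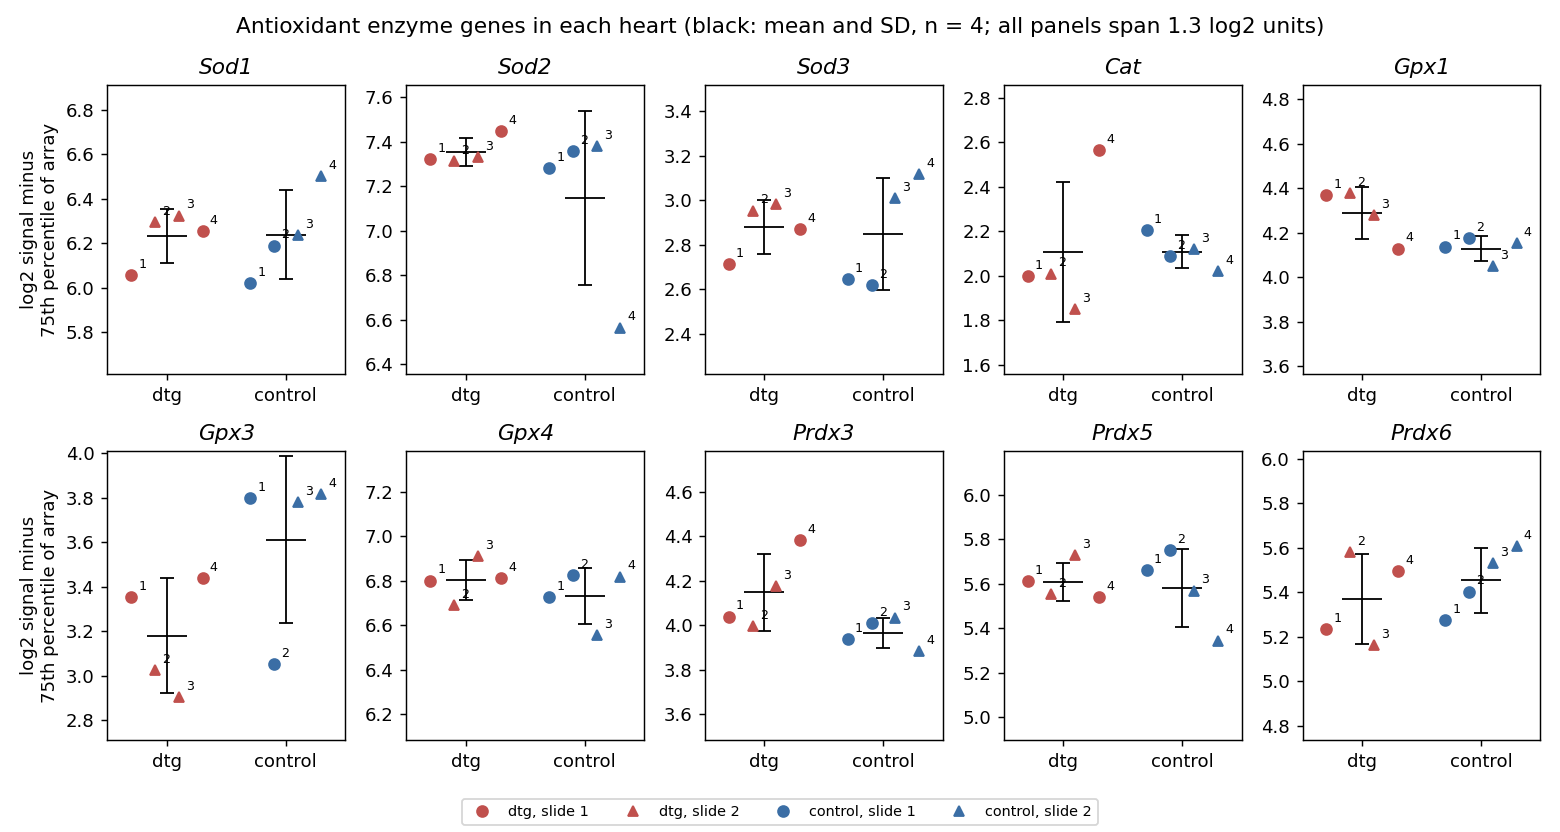
Each panel plots 1 gene, with the log2 signal minus the 75th percentile of the array on the vertical axis and the 4 dtg and 4 control hearts along the horizontal axis; numbers are replicates, symbols slides, and black bars the mean and SD. Gpx3 spreads over 0.91 and Sod2 over 0.88 log2 units, Gpx1 over 0.33, and the groups overlap in every panel.

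Sod2, the manganese enzyme of the mitochondrial matrix, was even across 7 hearts and low in 1. It measured 7.32, 7.31, 7.33 and 7.45 in dtg hearts 1 to 4, against 7.28, 7.36, 7.38 and 6.56 in control hearts 1 to 4. Control 4 was the low heart, and the other 7 lay within 7.28 and 7.45. The mean was 7.35 ± 0.06 (SD, n = 4) in dtg hearts and 7.15 ± 0.39 (SD, n = 4) in control hearts, a difference of 0.21 (SE 0.19, limma adjusted p = 1). Without control 4 it was 0.012. In control 4 Sod2 lay 0.76 below its median over the 8 hearts, and 9.68% of all features lay at least that far below theirs in that heart.

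Sod1, the copper and zinc enzyme of the cytosol, measured 6.06, 6.29, 6.32 and 6.25 in dtg hearts, against 6.02, 6.19, 6.24 and 6.50 in control hearts. The highest value was that of control 4 and the lowest that of control 1, so all dtg values lay inside the range of the controls. The difference was -0.0047 (SE 0.13), with a 95% interval from 0.809-fold to 1.23-fold. Ccs, the chaperone that delivers copper to Sod1, differed by 0.034 (SE 0.12), and neither passed the test (limma, adjusted p = 1).

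Sod3, the secreted superoxide dismutase that binds to the extracellular matrix, overlapped between groups but not between slides. It measured 2.71, 2.95, 2.98 and 2.87 in dtg hearts, against 2.64, 2.62, 3.01 and 3.12 in control hearts. All 4 hearts of slide 2 lay above all 4 of slide 1, as did 3.53% of all features, while 17.5% had no overlap in either direction, and the slide difference did not pass the test (limma, adjusted p = 0.135). The difference between groups was 0.031 (SE 0.15), and it was 0.16 within slide 1 and -0.097 within slide 2.

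Cat, the haem enzyme of peroxisomes, was high in 1 dtg heart. It measured 1.998, 2.01, 1.85 and 2.57 in dtg hearts, against 2.20, 2.09, 2.12 and 2.02 in control hearts. The 3 other dtg hearts lay below all 4 control hearts, and dtg 4 above them all. The means were 2.11 ± 0.32 (SD, n = 4) in dtg hearts and 2.11 ± 0.08 (SD, n = 4) in control hearts, a difference of -0.0026 (SE 0.16), which was -0.16 without dtg 4. A second probe of Cat gave 0.65, 0.36, 0.60 and 1.02 in dtg hearts, against 0.87, 0.43, 0.49 and 1.14 in control hearts. On that probe dtg 4 was again high but control 4 was higher, so the probes ranked the hearts differently, and its difference was -0.079 (SE 0.20). Neither probe passed the test (limma, adjusted p = 1).

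**Figure D2:**
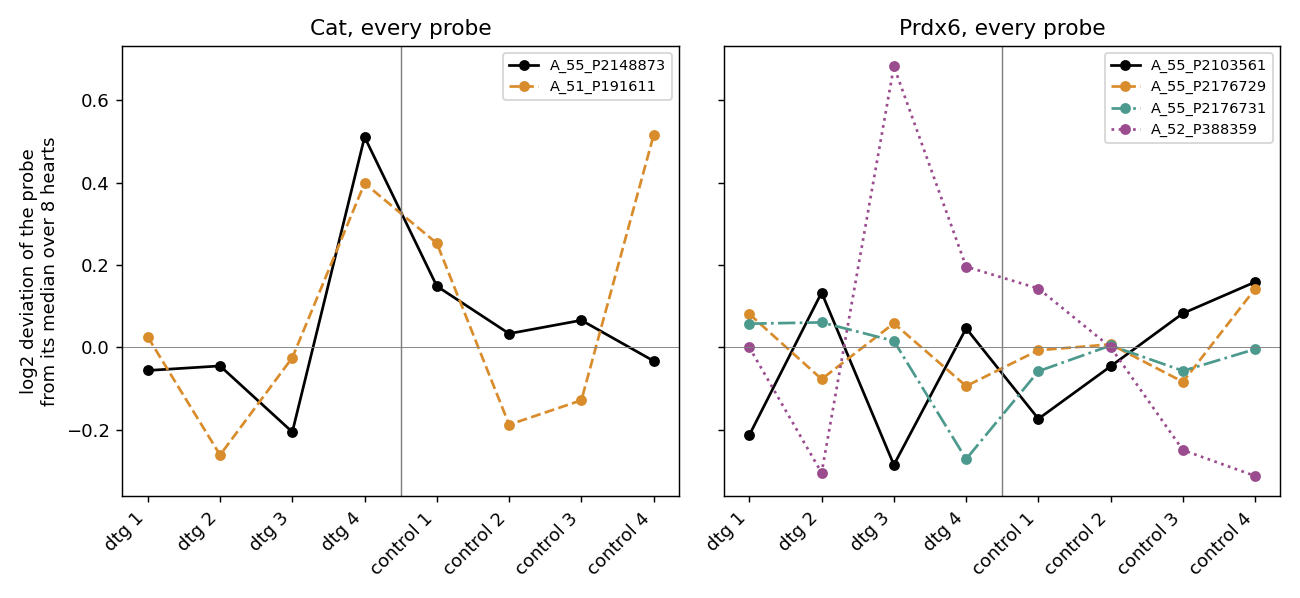
Lines connect the hearts for each probe of Cat (left) and Prdx6 (right), as the log2 deviation of the probe from its own median over the 8 hearts, with dtg hearts left of the grey line and control hearts right of it. Both Cat probes are high in dtg 4, and only 1 is high in control 4; 1 Prdx6 probe spans 0.99 log2 units and the other 3 between 0.24 and 0.44.

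Among the glutathione peroxidases, which are selenium enzymes, Gpx3 varied most and Gpx1 least. Gpx1, which reduces hydrogen peroxide in cytosol and mitochondria, measured 4.37, 4.38, 4.28 and 4.13 in dtg hearts, against 4.14, 4.17, 4.05 and 4.15 in control hearts. The 3 highest values were those of dtg 1, dtg 2 and dtg 3, while dtg 4 lay among the controls. The difference was 0.16 (SE 0.10, limma adjusted p = 1), a fold of 1.12 with a 95% interval from 0.953 to 1.31, and it was 0.093 within slide 1 and 0.23 within slide 2. Erythroid markers also stood higher on average: all 6 measured of 9 listed lay above the control mean in dtg hearts, where 55.3% of all features did. Of these 6, 2 had an unadjusted p under 0.05 (limma), against 0.743% of all features, and 0 passed the test. Their summed signal, in multiples of the 75th percentile, lay between 848 and 1136 in dtg hearts and between 585 and 1057 in control hearts. By heart, the mean log2 level of these markers was 4.84, 4.91, 4.34 and 4.94 in dtg hearts 1 to 4. In control hearts 1 to 4 it was 3.98, 4.37, 4.34 and 4.79. It was thus highest in dtg 4, the dtg heart lowest in Gpx1, while dtg 1 and dtg 2 were high in both. Red cells and their precursors are rich in Gpx1. The part of these cells in the difference was not tested.

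Gpx3, the secreted form found in plasma, measured 3.35, 3.02, 2.90 and 3.44 in dtg hearts, against 3.80, 3.05, 3.78 and 3.82 in control hearts. Control 1, control 3 and control 4 lay above all dtg hearts, and control 2 lay among them. The mean was 3.18 ± 0.26 (SD, n = 4) in dtg hearts and 3.61 ± 0.37 (SD, n = 4) in control hearts. The difference of -0.43 (SE 0.21, limma adjusted p = 1), or 0.741-fold with a 95% interval from 0.528 to 1.04, was the widest of the 10. It was -0.027 within slide 1 and -0.84 within slide 2.

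The hearts low in Gpx3 were also those low in atrial markers. Averaged over Myl7, Sln and Myl4, which mark atrial muscle, the log2 level was 2.17 in control 2, 2.24 in dtg 2 and 2.77 in dtg 3, and Gpx3 was lowest in the same 3 hearts. Nppa, the other listed atrial marker, is not in this mean and was also lowest in them, at 5.64 in dtg 2, 5.53 in dtg 3 and 5.31 in control 2. In dtg 1 and dtg 4 the atrial mean was 4.64 and 6.07 and Gpx3 was 3.35 and 3.44; in control 1, control 3 and control 4 the atrial mean was 4.83, 5.93 and 6.58 and Gpx3 was 3.80, 3.78 and 3.82. Among these 5 hearts the 2 dtg hearts lay below the 3 control hearts in Gpx3, which is a description without a test. The dtg mean lay below the control mean for all 4 listed atrial markers, where 44.7% of all features lay below, with 0 of 4 past the test. Their summed signal in multiples of the 75th percentile lay between 70.4 and 524 in dtg hearts and between 59.6 and 681 in control hearts. With the atrial mean as a covariate, a fit chosen after the values were seen, the difference in Gpx3 was -0.28 (SE 0.12, limma adjusted p = 1), and it was -0.28 with Nppa in the mean too. The slope of Gpx3 on the atrial mean was 0.16 (SE 0.04) in that fit, with an adjusted p of 0.899 (limma, unadjusted p = 0.0033); 4.97% of all features had an unadjusted p under 0.05 for this slope and 0.042% an adjusted one. As the hearts fell into a set of 3 and a set of 5 by atrial signal, no correlation is given.

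**Figure D3:**
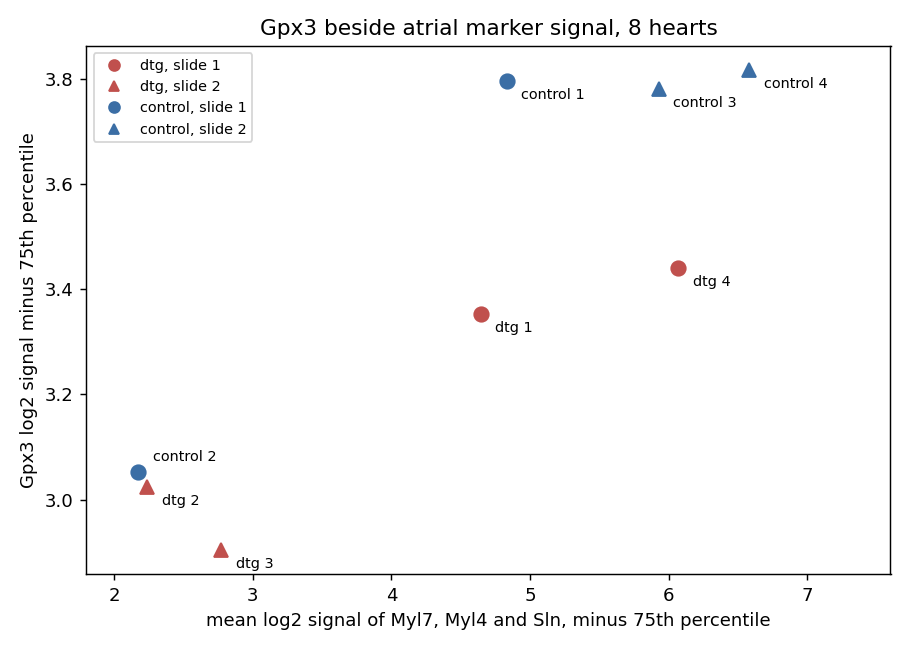
Each point is 1 heart, with the mean log2 signal of 3 atrial markers on the horizontal axis and that of Gpx3 on the vertical axis, both minus the 75th percentile of the array. The 3 hearts with an atrial mean between 2.17 and 2.77 have Gpx3 between 2.90 and 3.05, and the other 5 have Gpx3 between 3.35 and 3.82.

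Gpx4, which reduces phospholipid peroxides in membranes and holds back ferroptosis, was even across hearts. It measured 6.80, 6.69, 6.91 and 6.81 in dtg hearts, against 6.73, 6.82, 6.56 and 6.82 in control hearts, and the highest heart exceeded the lowest by 1.28-fold. The difference was 0.073 (SE 0.11, limma adjusted p = 1), with a 95% interval from 0.887-fold to 1.25-fold.

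The peroxiredoxins, which reduce peroxides through a reactive cysteine, showed no called difference either. Prdx3, confined to mitochondria, measured 4.04, 4.00, 4.17 and 4.38 in dtg hearts, against 3.94, 4.01, 4.03 and 3.88 in control hearts. The 3 highest values were dtg 4, dtg 3 and dtg 1, but dtg 2 lay below 2 controls. The difference was 0.18 (SE 0.12, limma adjusted p = 1), or 1.13-fold with a 95% interval from 0.943 to 1.36, and it was 0.10 without dtg 4. The Prdx3 probe was printed at 10 spots per array, of which 9 were used on dtg 2. The SD between spots of an array, which holds spot noise alone, was 0.048.

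Prdx5, found in mitochondria, peroxisomes and cytosol, measured 5.61, 5.56, 5.73 and 5.54 in dtg hearts, against 5.66, 5.75, 5.57 and 5.35 in control hearts. Control 4 was again the lowest heart and the groups overlapped throughout. The difference was 0.028 (SE 0.12), and it was -0.13 within slide 1 and 0.19 within slide 2. Prdx6, which has a single catalytic cysteine and also phospholipase activity, measured 5.24, 5.58, 5.16 and 5.49 in dtg hearts, against 5.28, 5.40, 5.53 and 5.61 in control hearts. The lowest and the second highest value were both from dtg hearts, and the difference was -0.085 (SE 0.14). The other 3 probes of Prdx6 gave differences of -0.023 (SE 0.10), -0.0057 (SE 0.11) and 0.25 (SE 0.22). The last of these read between 20.4 and 47.5 intensity units, and none passed the test (limma, adjusted p = 1).

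**Figure D4:**
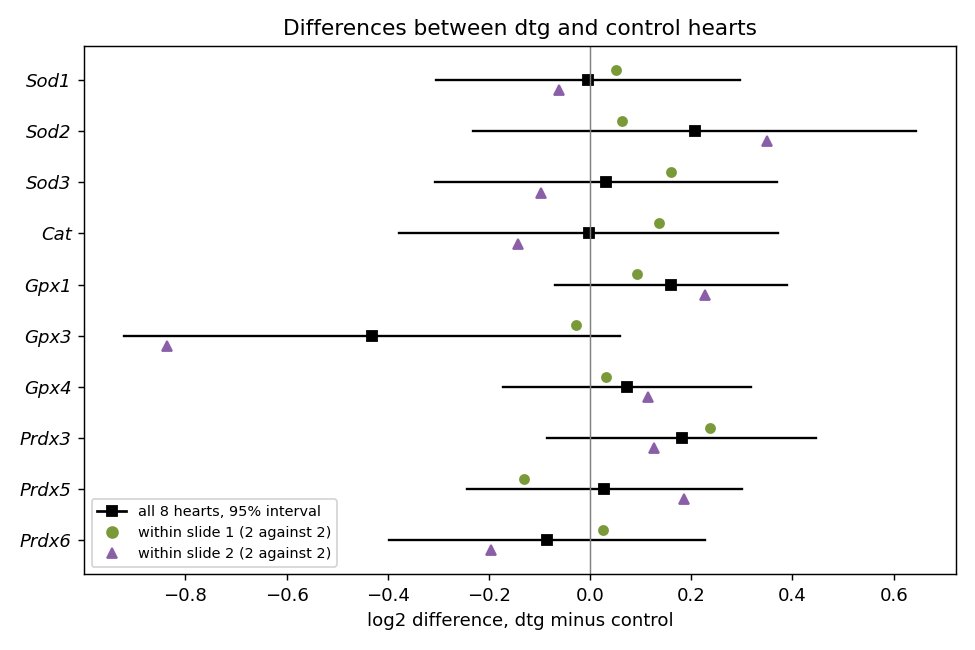
Black squares give the log2 difference, dtg minus control, of each gene over all 8 hearts with its 95% interval, green circles the difference within slide 1 and purple triangles that within slide 2 (2 hearts against 2 in each). Every interval spans 0, and for 5 genes the differences within the slides lie on opposite sides of 0.

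Within slides, 5 genes kept one direction: Sod2, Gpx1, Gpx4 and Prdx3 lay higher and Gpx3 lower in dtg hearts on both. The other 5, Sod1, Sod3, Cat, Prdx5 and Prdx6, turned direction between the slides. Slide itself was also compared, with group kept in the fit. Of the 10 genes 0 were called between slide 2 and slide 1, whereas 10.2% of all features were, 64 higher (0.299%) and 2120 lower (9.9%) in slide 2; with median scaling, which put the median slide difference of all features at 0.27, against -0.02 with the 75th percentile, 339 were called higher and 1164 lower. The slide difference was above 0 in 4 genes and below 0 in 6, against 47% and 53% of all features, and the signs of 6 of these genes turned under median scaling. Sod3 had the smallest unadjusted p (limma, 0.021) and was the 1 gene under 0.05, against 21.1% of all features, 3.53% higher and 17.6% lower, with a mean of 3.02 ± 0.07 (SD, n = 4) in slide 2 and 2.71 ± 0.11 (SD, n = 4) in slide 1. That difference of 0.30 (SE 0.10) did not pass (limma, adjusted p = 0.135). Sod3 was the 1 gene of 10 in which the slides did not overlap, and 17.5% of all features had no overlap, 3.53% with slide 2 higher and 14% with slide 2 lower. Sod1 was next, 0.21 (SE 0.11) higher in slide 2 (limma, adjusted p = 0.357).

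By single heart, control 4 lay farthest from the median heart in these genes, with a median absolute deviation of 0.18, followed by dtg 3 with 0.13, whereas dtg 4, at 0.045, was near it in most of them. Control 4 had the highest value of 4 genes and the lowest of 3, dtg 4 the highest of 3 genes, and dtg 3 the highest of 1 and the lowest of 3. The one deviation below -0.5 was Sod2 in control 4, and the one above 0.5 was Cat in dtg 4, at 0.51 above the median heart, where 10.9% of all features lay at least that far above theirs. The within-group SD lay below the median of all features in 8 of 10 genes, with Gpx1 at percentile 3.68, Gpx4 at 7.14, Sod2 at 54.2 and Gpx3 at 60.9. The median percentile was 25.0 for these enzymes, 11.5 for the mitochondrial and 13.2 for the cardiomyocyte list.

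**Figure D5:**
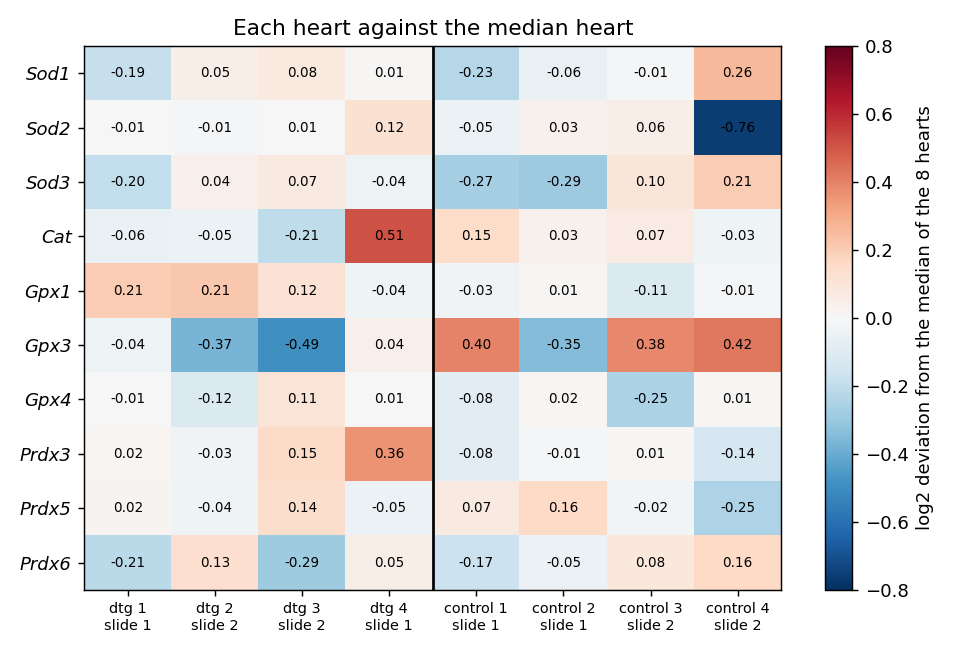
Rows are genes and columns hearts, with dtg hearts left of the black line, and each cell gives the log2 deviation of the heart from the median of the 8 hearts. Sod2 in control 4 (-0.76) and Cat in dtg 4 (0.51) are the cells farthest from 0, and the row of Gpx3 is low in dtg 2, dtg 3 and control 2.

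The genes closest to these patterns were found by the root mean square difference of centred log2 values over the 8 hearts, among features with at least 0.8 of the range. For Gpx3 they were Pam, Igsf23 and Htra4, at 0.12, 0.16 and 0.17. Pam, the peptide amidating enzyme, is abundant in atrial muscle, and it measured 0.92, 0.39, 0.12 and 0.97 in dtg hearts, against 1.27, 0.70, 1.26 and 1.20 in control hearts. Pam, Igsf23 and Htra4 were, like Gpx3, lowest in dtg 3, dtg 2 and control 2. Genes chosen by closeness to a pattern share its low hearts through that choice, so this is no separate result. For Sod2 the closest genes were N6amt1, Dna2 and Pak1, at 0.078, 0.079 and 0.091. They were low in control 4, again through the choice. For Cat the closest genes were Phc1, Zfc3h1 and Filip1, at 0.032, 0.077 and 0.077.

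No gene that supplies or regulates these reactions was called. In 9 lists of neighbouring genes, 117 of 122 were tested. Of these, 59 lay above and 58 below the control mean, where 55.3% of all features lay above and 44.7% below. In either direction 0 of the 117 passed the test (limma), as did 0% of all 21412 features. At an unadjusted p under 0.05 there were again 0, against 0.743% of all features. In the glutathione list 8 of 17 lay above the control mean, with Mgst1, a membrane glutathione transferase, at 0.19 (SE 0.11) and Gstm2 at 0.15 (SE 0.11). In the thioredoxin list 3 of 14 did, with Txnrd1, the cytosolic thioredoxin reductase, at -0.15 (SE 0.11) and Msra at -0.079 (SE 0.11). Eefsec and Selenok had the smallest p of the metal and selenium list, in which 7 of 13 lay above the control mean, at 0.13 (SE 0.12) and -0.10 (SE 0.10).

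Of the NADPH suppliers 1 of 6 lay above the control mean, with Idh1 at -0.19 (SE 0.17) and G6pdx at 0.068 (SE 0.12). Among Nrf2, its partners and its targets 11 of 14 did, the metallothionein Mt2 by 0.15 (SE 0.15) and the haem oxygenase Hmox2 by 0.12 (SE 0.13). The median of that list was 0.090, against 0.015 over all features. Among oxidant sources 11 of 15 lay above the control mean. Of that list Duox1, dim at -4.38 to -3.47, lay higher by 0.27 (SE 0.17) and Xdh, the xanthine oxidising enzyme, by 0.13 (SE 0.11). Nox1, of that list and also dim at -3.93 to -1.76, was the 1 gene of 117 called between slides. It lay at -1.70 in slide 2 against slide 1 (limma, adjusted p = 0.00178). Of all features 10.2% were called between slides.

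Of the regulators that act on Sod2 and Cat, 5 of 7 lay above the control mean, with Foxo3 at 0.24 (SE 0.32) and Foxo4 at 0.23 (SE 0.30). Both probes were dim, with Foxo3 between -5.22 and -3.81 and Foxo4 between -6.08 and -4.70. The lowest Foxo4 value was that of control 4, where the other control hearts lay between -4.83 and -4.73. In the peroxisome list, which shares its organelle with Cat, 7 of 17 lay above the control mean. Hsd17b4 was at -0.13 (SE 0.10) and Pex19 at -0.087 (SE 0.11). Of 14 mitochondrial genes 6 lay above it, with Cox4i1 at 0.20 (SE 0.20) and Sdha at -0.086 (SE 0.11). The median of that list was -0.0060. Of the enzymes placed above in mitochondria, wholly or in part, Sod2 differed by 0.21, Prdx3 by 0.18, Gpx1 by 0.16 and Prdx5 by 0.028. Without control 4 the Sod2 difference was 0.012. The relation to mitochondrial content was not tested. None of the genes named in these lists passed the test between dtg and control hearts (limma, adjusted p = 1).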

How the data were processed

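Labelled RNA (100 ng per heart) of 4 dtg and 4 control hearts was read on 1-colour arrays. The authors' deposited scanner tables give, per the file headers, a processed spot signal in linear intensity units with a local background removed by Agilent Feature Extraction 10.7.3.1. A table of log2 values was also deposited by the authors. Compared with the scanner values, its columns behaved as quantile-normalized log2 signal from which every probe's own median was taken away (r from 0.999992 to 0.999999), and their medians were 0.00513, 0.0069, -0.0325 and -0.00939 for dtg 1 to 4 and -0.0153, -0.0169, 0.0323 and 0.0179 for control 1 to 4. No source used here names the tool behind it.

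Control and outlier spots were removed, replicate spots averaged as log2, and the array's 75th percentile subtracted. Probes well above background on at least 4 of 8 arrays stayed (26095 of 39429). Names came from RefSeq accessions, versions removed, in a GRCm38.p6 table (26369 probes named, 13060 not), and the probe with the highest mean represented its gene. The scanner files name mm9, so the only coordinates printed are those of the RefSeq promoter windows, on GRCm38.p6. Groups were tested, dtg minus control, with limma 3.58.1 in R 4.3.3 (lmFit, eBayes, no covariates), with the Benjamini-Hochberg method applied to all features (threshold 0.05); slides were tested with group in the fit. The number of arrays limits the precision, and the code was tested on simulated data. Genes, lists, tests and rules were chosen with earlier results of these data known. Named genes were the 10 enzymes, the 2 genes per neighbouring list with the smallest unadjusted p, and the 3 genes nearest in pattern to each of the 3 enzymes with the widest range. Outside that rule, and with their values already seen, Ccs, Nox1, Secisbp2, Selenot, Pstk, Sirt1, Nqo1, Hmox1, Gclc, Gclm, Keap1 and Ppargc1a were added. Igf1r is shown as the targeted gene, without being a check of the deletion, and Myh6 as a cardiomyocyte marker. The atrial markers Myl7, Myl4, Sln and Nppa were named beside Gpx3 with their values seen. Same-numbered hearts did not deviate together in every pair (correlations 0.54, -0.54, 0.15 and 0.16), so the numbers were not used as pairs. Normexp, one alternative, took pixel medians as signal and local medians as background. The other alternatives are given with their effect in the closing section.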

Additional observations from a re-analysis of the deposited data

Results flagged for a closer look

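Among 20 sets of 4 hearts (10 genes in each group), 3 had a heart far from the other 3; chance alone flags about 1 in 20 such sets. Sod2 was low in control 4, at 6.56 where the other control hearts lay between 7.28 and 7.38. Sod2 was also set apart in dtg 4, at 7.45 where the other dtg hearts lay between 7.31 and 7.33. Gpx3 was low in control 2, at 3.05 where the other control hearts lay between 3.78 and 3.82, and control 2 was also the control heart lowest in atrial markers.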

How the results depend on the processing

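No enzyme was called between dtg and control hearts, or between slides, under any alternative run (adjusted p from 0.910 to 1 and from 0.058 to 1, limma), and 0 features were called between groups in all of them. Gpx1, Gpx3 and Prdx3 kept their direction in 24 of 24 alternatives, all of which reuse the same hearts. Blocking by slide or replicate, changing the filter on dim probes or averaging kept probes could not move these differences. Each slide and replicate number held both groups equally, and these genes had no second probe. Gpx1 ran from 0.080 to 0.40 and Prdx3 from 0.020 (the blocked fit on 5 hearts) to 0.44. Gpx3 ran from -0.84 within slide 2 to -0.027 within slide 1 and was -0.18 with array weights and -0.16 with normexp. The other differences, dtg minus control, turned sign as follows, and the cause was not tested. Normexp gave Sod1 0.24, Cat 0.15 and Prdx6 0.17, and without a turn of sign moved Sod2 to 0.52, Gpx4 to 0.33, Sod3 to 0.28 and Prdx5 to 0.29. It raised the difference of every enzyme, with an SE from 0.34 (Cat) to 0.55 (Sod2), against 0.16 and 0.19 in the main fit. Normexp without spots darker than their background gave Sod1 -0.020, Cat -0.010, Prdx6 -0.090, Sod2 0.26 and Gpx4 0.063. Quantile normalization gave Prdx5 -0.0018 and the authors' table -0.0029. Median scaling lowers every gene by 1 constant and so turned those near 0: Sod3 -0.048, Gpx4 -0.0066 and Prdx5 -0.052. The mean of kept probes gave Prdx6 0.034. Within slide 1, Sod1 was 0.052, Cat 0.14, Prdx5 -0.13 and Prdx6 0.026, and within slide 2 Sod3 was -0.097. Array weights gave Sod1 0.049 and Prdx5 -0.076. Chosen after seeing the data, a fit blocked by slide on the hearts other than dtg 3, dtg 4 and control 4 gave Sod2 -0.029 and Prdx5 -0.060, and the atrial covariate gave Sod1 0.0093, Cat 0.056 and Prdx5 -0.021 (with Nppa in the mean 0.0077, 0.056 and -0.021). Leaving out each heart in turn gave Sod1 from -0.077 to 0.084, Sod3 from -0.045 to 0.12, Cat from -0.16 to 0.083, Prdx5 from -0.051 to 0.084, Sod2 from 0.012 (without control 4) to 0.28, Gpx4 from 0.015 (without control 3) to 0.11, Prdx6 from -0.16 to -0.017 (without dtg 3) and Gpx3 from -0.62 (without control 2) to -0.34. The replicate block left the differences as they were (Gpx3 -0.43, SE 0.16), with 0 features called. At an unadjusted p under 0.05 (limma) there was 1 enzyme of 10 under the replicate block, within slide 2 and without control 2. It was Gpx3 each time. In the blocked fit on 5 hearts it was Gpx1 (0.26, SE 0.086), and in the other settings there were 0. In the same order, 277, 496, 179 and 665 of the 21412 features were under 0.05 in these 4 settings. At an unadjusted p under 0.05 quantile normalization gave 97 features higher and 97 lower, against 131 and 28. For slide 2 minus slide 1, normexp gave Sod1 -0.018, Gpx1 -0.24 and Prdx6 -0.13, and normexp without dark spots Sod2 0.015. Quantile normalization gave Gpx1 -0.064 and the authors' table -0.061. Median scaling, again by 1 constant shift, gave Sod2 0.086, Cat 0.077, Gpx3 0.26, Gpx4 0.24, Prdx3 0.22 and Prdx5 0.20. Leaving out hearts gave Gpx1 from -0.049 to 0.048, Gpx3 from -0.26 to 0.076, Gpx4 from -0.099 to 0.014 and Prdx3 from -0.13 to 0.010. Features called between slides, 2184 in all, were 0 with normexp, 1307 with quantile normalization, 1375 among probes well above background on all 8 arrays, 1293 in the authors' table, and 1055 to 2538 with a heart left out. All enzyme probes were well above background, and differences inside the intervals given were not excluded by these values. The intervals are those of single genes, without adjustment for the number of features tested, and are no limit of detection.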

Other observations

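In 116 genes of the lists around these enzymes with a value in every heart, dtg 4 and control 4, which lay on different slides, were the lowest pair of hearts in 21 (18.1%) and the highest pair in 28 (24.1%). Of the 10 antioxidant enzymes, they were the lowest pair in 1 (10%) and the highest pair in 0 (0%). Over all features the shares were 12.7% and 15.03%, and these counts were made after the values had been seen. Among the genes low in both hearts, Secisbp2, which recruits the selenocysteine machinery, measured 0.17, 0.24, -0.05 and -1.13 in dtg hearts 1 to 4, against 0.16, 0.26, -0.02 and -1.58 in control hearts 1 to 4. Keap1, which holds Nrf2 inactive in the cytosol, measured 2.17, 2.35, 2.03 and 0.66 in dtg hearts, against 2.16, 2.36, 2.06 and 0.71 in control hearts. Ppargc1a, the coactivator of mitochondrial biogenesis, measured 2.53, 3.17, 2.33 and 1.15 in dtg hearts, against 2.79, 3.22, 2.84 and 1.39 in control hearts. Other genes of the same lists were highest in dtg 4 and control 4. In the metal and selenium list these were Selenot (3.85 and 4.33, others 3.16 to 3.65) and Pstk (2.93 and 3.13, others 2.54 to 2.71), among others. Sirt1, listed with Ppargc1a, was at 0.39 and 0.86, with the other hearts at -0.24 to 0.38. Targets of Nrf2 did not share a direction there: Nqo1 was highest in dtg 4 and control 4 (2.35 and 2.14, others 1.77 to 2.04), whereas Hmox1 (0.0074 and -0.028, others 0.13 to 0.45), Gclc (-0.49 and -0.70, others -0.02 to 0.33) and Gclm (-3.11 and -3.34, others -2.82 to -1.93) were lowest. What sets these hearts apart was not tested.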
